A study of Mus musculus with 18 samples.

Results

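The levels of 9 genes that carry, answer or restrain transforming growth factor beta (TGF-beta) and bone morphogenetic protein (BMP) signals were followed in 3 mouse lung carcinoma cell lines. The genes were Id1, Id2, Id3, Smad6, Smad7, Tgfb1, Tgfb2, Ccn2 (also written Ctgf) and Bmp4. They were taken by name, each through the brightest probe set by its mean signal, and all 9 were among the 18193 genes on the arrays and the 10916 genes above the filter on low signal. The lines A2C12, betaD5 and cRAF_cMYC were grown from lung tumours of 8-month-old mice that carried both a c-myc and a c-raf transgene, so every group shares both transgenes and no line without them was measured. The labels do not name the promoters of the transgenes, the number of mice or whether a line is 1 clone. From each line, side population (SP) cells, which pump out the DNA dye Hoechst, and non-SP cells were hybridized to 3 arrays each, 18 arrays in 6 groups, and the comparison asks how the fractions differ. The labels do not say whether replicates were separate cultures, so p-values measure the spread between these samples, which may be technical.

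TGF-beta and BMP ligands are secreted proteins that bring together pairs of receptor kinases at the cell surface. The receptors phosphorylate Smad proteins, Smad2 and Smad3 for TGF-beta and Smad1, Smad5 and Smad9 for BMP, which join Smad4 and enter the nucleus to switch target genes. The Id genes are direct BMP targets whose proteins bind and hold back E proteins, a class of transcription factor. Smad6 and Smad7 are inhibitory Smads that the pathway induces and that block it in return. Ccn2 encodes a matrix-associated secreted protein that TGF-beta and the YAP and TEAD factors both induce. In epithelial cells TGF-beta is known for growth arrest and for the change to a mesenchymal form.

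Promoter sequence is shown for 3 members, since genes that answer the same pathway differed in the Smad motifs near their starts. RefSeq's table for GRCm38.p6 held a promoter window of 300 bases (250 before to 50 after an annotated start) for 6 of the 9 genes, Id2, Id3, Smad6, Tgfb1, Tgfb2 and Bmp4. For Smad6 and Tgfb2 that start lay inside the gene, whose 5′ end was annotated at chr9:64022085 and chr1:186709697. Both strands were searched for the palindromic Smad box GTCTAGAC, the GC-rich Smad site GGCGCC and the CAGA box core CAGACA, none of which overlapped another in the 6 windows. The windows of Smad6, an inhibitory Smad, and of the BMP targets Id2 and Id3 are printed 5′ to 3′ in the direction of transcription, with a match in capitals.
Smad6 (chr9:64022010-64022309, minus strand): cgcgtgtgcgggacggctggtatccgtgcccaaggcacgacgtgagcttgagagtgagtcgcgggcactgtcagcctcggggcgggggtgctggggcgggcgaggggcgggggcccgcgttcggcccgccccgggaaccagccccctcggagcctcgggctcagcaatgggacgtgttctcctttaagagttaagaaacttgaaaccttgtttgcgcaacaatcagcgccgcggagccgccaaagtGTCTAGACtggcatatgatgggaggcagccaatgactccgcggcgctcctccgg
Id2 (chr12:25096043-25096342, minus strand): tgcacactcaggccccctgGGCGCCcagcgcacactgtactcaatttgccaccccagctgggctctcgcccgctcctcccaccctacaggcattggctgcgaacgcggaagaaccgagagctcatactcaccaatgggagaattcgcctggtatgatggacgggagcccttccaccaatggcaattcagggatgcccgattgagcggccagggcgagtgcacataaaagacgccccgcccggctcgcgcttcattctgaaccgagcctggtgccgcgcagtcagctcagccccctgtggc
Id3 (chr4:136143572-136143871, plus strand): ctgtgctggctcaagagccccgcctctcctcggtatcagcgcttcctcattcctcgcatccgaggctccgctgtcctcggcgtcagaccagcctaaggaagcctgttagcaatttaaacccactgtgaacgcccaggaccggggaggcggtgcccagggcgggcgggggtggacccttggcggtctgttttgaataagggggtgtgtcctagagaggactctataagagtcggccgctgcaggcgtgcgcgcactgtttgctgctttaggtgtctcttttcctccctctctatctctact
The Smad box lay at the start used for the Smad6 window, beginning at base -4 from it, and was in 0.213% of 32851 promoter windows. In Id2 the GC-rich site began at base -231, and 11.9% of windows held that motif. The window of Id3 held none of the 3 motifs, nor did those of Tgfb1 and Bmp4. The CAGA core was in the Tgfb2 window, at base -204, as in 21.0% of all windows. A match describes letters in a window and was not tested as a site.

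Some arrays stood apart in ways that touch these results. With each array's own pair left out, both arrays labelled betaD5 1 were most like arrays labelled cRAF_cMYC (non-SP, r of 0.982 against 0.925 with its own line). Likewise cRAF_cMYC 3 was most like betaD5 (non-SP, 0.988 against 0.929), so lines are named as labelled. Most other betaD5 and cRAF_cMYC arrays were also most like the other line, as cRAF_cMYC 2 SP was (0.983 against 0.967). These pairs stood apart by a low highest r with their own line, 0.911 to 0.930, against 0.967 to 0.987 for the other betaD5 and cRAF_cMYC arrays. The medians of the deposited values also differed: array medians were at most 6.06 in A2C12 and 6.04 in the cRAF_cMYC 1 pair, against 6.33 to 6.72 elsewhere. The median gene tested was lower in A2C12 than in the other lines by a difference of -0.58 (log2) in non-SP and -0.60 in SP cells. Whether this shift came from the processing or the cells was not tested. Line differences are given as deposited and again centred, with each array's median over the tested genes at 0. Gene levels below are deposited log2 signals unless called centred. The cells were sampled in bulk, so fewer cells of a type and less RNA per cell cannot be told apart. Of 10 epithelial markers, 4 (Epcam, Krt8, Krt18 and Krt19) lay above the filter and Cdh1 did not. The filter takes the mean of all arrays, and Cdh1 read 5.65 to 6.97 on A2C12 arrays and 3.37 to 5.42 on the others. The mean of the 10 epithelial markers overlapped, at 6.31 to 6.87 against 6.46 to 7.31. Of 9 alveolar type II markers on the arrays, 4 (Sftpb, Abca3, Etv5 and Slc34a2) lay above it and 5, Sftpc and Nkx2-1 among them, did not. All 3 club cell markers lay below it, and 8 of 10 fibroblast markers lay above it.

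Ccn2 had the largest line difference of the 9 genes. In A2C12 its signal was 10.50, 10.34 and 9.80 in non-SP replicates 1 to 3 and 11.31, 10.19 and 9.87 in SP cells. In betaD5 it was 13.92, 13.98 and 14.32 in non-SP and 13.37, 14.27 and 14.01 in SP cells. In cRAF_cMYC it was 13.41, 12.13 and 13.96 in non-SP and 13.30, 11.39 and 13.91 in SP cells. All 6 A2C12 arrays lay below all 12 others, the only member of which this was true as deposited, where 28.1% of the tested genes did so. A2C12 was lower than the mean of the other lines by 3.41 (difference -3.41, SE 0.47, limma adjusted p = 3.26e-05), or 10.6-fold, in non-SP cells. In SP cells the difference was -2.92 (SE 0.47), or 7.57-fold. Centred, the differences were still called, at -2.83 (adjusted p = 0.00119) and -2.27 (adjusted p = 0.00531), 7.13-fold and 4.83-fold. The centred A2C12 values (1.01 to 2.44) then overlapped the others (1.76 to 4.85) through the cRAF_cMYC 2 pair, at 2.47 in non-SP and 1.76 in SP cells. In both fractions the lines ran from A2C12 through cRAF_cMYC (13.16 ± 0.94 and 12.86 ± 1.31, SD, n = 3, non-SP and SP) to betaD5 (14.08 ± 0.22 and 13.89 ± 0.46), and these last neighbours did not differ beyond their spread as labelled. Markers of other cell types also differed between A2C12 and the rest. The mean signal of 7 mesothelial markers, 6 of them above the filter over all arrays, was 5.15 to 5.63 on A2C12 arrays and 9.15 to 11.31 elsewhere. Centred, it was -3.68 to -3.21 against -0.48 to 1.69. The mean of 10 fibroblast markers was 8.56 to 8.77 against 9.30 to 11.63. Centred, its ranges overlapped, at -0.29 to -0.08 against -0.32 to 2.18. The part of these markers in the Ccn2 difference was not tested.

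**Figure D1:**
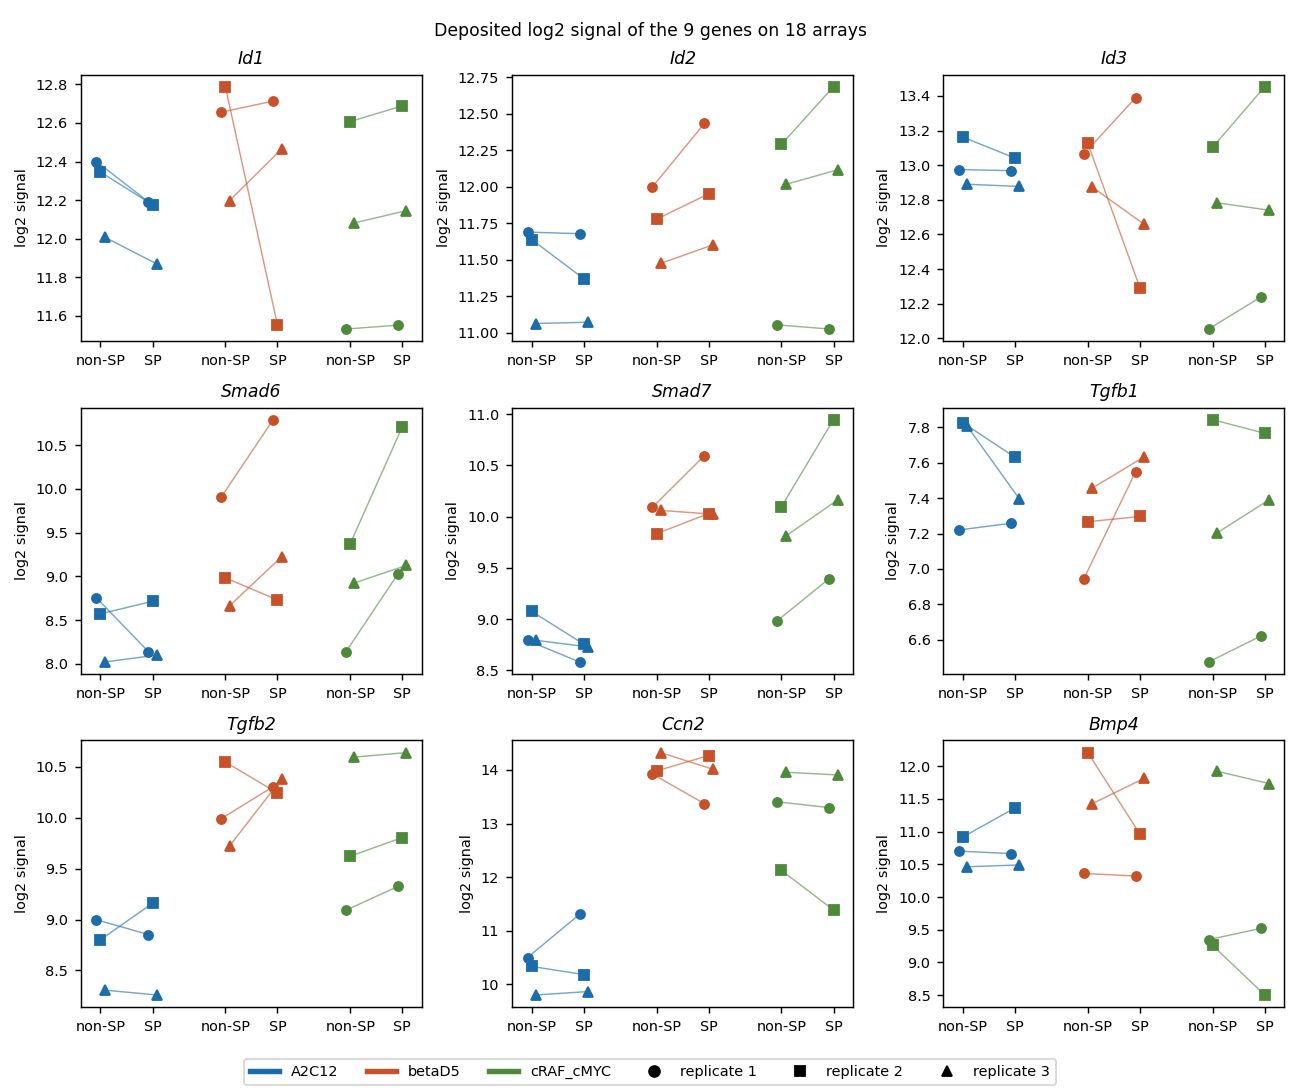
Deposited log2 signal (y axis, own scale per gene) of the 9 genes in non-SP and SP cells (x axis) of A2C12, betaD5 and cRAF_cMYC. Each point is 1 array, its shape the replicate number, and lines join the arrays of a pair. The 6 A2C12 arrays lie below all others for Ccn2, and the Bmp4 arrays of betaD5 2, betaD5 3 and cRAF_cMYC 3 lie at 10.96 to 12.21 while those of the other betaD5 and cRAF_cMYC pairs lie at 8.50 to 10.36.

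The ligand genes differed among themselves. Tgfb2, a ligand known in lung development, was at 8.999, 8.80 and 8.31 in A2C12 non-SP and 8.85, 9.16 and 8.26 in SP cells, against 9.09 to 10.64 on the other 12 arrays, so that A2C12 overlapped them only at the cRAF_cMYC 1 non-SP array. The difference was -1.23 (SE 0.33, adjusted p = 0.00585) in non-SP and -1.36 (adjusted p = 0.00279) in SP cells as deposited. It was not called once centred, at -0.66 (adjusted p = 0.0911) and -0.71 (adjusted p = 0.0649). Its probe sets differed in size: the second gave no call in non-SP cells as deposited (-0.72, adjusted p = 0.0764), while 1 of lower signal had a difference of -1.85 there, with all A2C12 arrays (6.56 to 7.44) below all others (7.60 to 9.81), and the dimmest had -0.56. Centred, these 3 were at -0.15, -1.28 and 0.0073. Tgfb1, the ligand best known for growth arrest and fibrosis, lay between 6.47 and 7.84 on all arrays, with no call as deposited (0.42 in non-SP and 0.05 in SP cells). Centred, all 6 A2C12 arrays (-1.64 to -0.99) lay above the other 12 (-2.67 to -1.81), as they did for Id3 and for 11.3% of tested genes. The centred Tgfb1 difference was 0.99 (adjusted p = 0.00131) in non-SP and 0.70 (adjusted p = 0.0121) in SP cells. The other Tgfb1 probe set, of lower signal, went the other way, with centred differences of -0.28 and -0.17, so no direction is drawn for Tgfb1.

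Bmp4, a BMP ligand of lung epithelium and mesenchyme, did not separate A2C12 from the rest. A2C12 lay at 10.46 to 11.36, inside the range of the other arrays, 8.50 to 12.21, and the differences were -0.06 (SE 0.64) in non-SP and 0.36 (SE 0.64) in SP cells. Its spread was within the other lines. The betaD5 pairs 1 to 3 read 10.36, 12.21 and 11.42 in non-SP and 10.32, 10.96 and 11.81 in SP cells. The cRAF_cMYC pairs read 9.35, 9.26 and 11.92 in non-SP and 9.52, 8.50 and 11.74 in SP cells. As labelled, betaD5 minus cRAF_cMYC was 1.15 (SE 0.73, adjusted p = 0.592) in non-SP and 1.11 (SE 0.73, adjusted p = 0.605) in SP cells. In either comparison limma called no gene at all. At an unadjusted p under 0.05 were 689 and 509 genes, 6.31% and 4.66% of those tested, with no member among them. Without the pairs betaD5 1 and cRAF_cMYC 3, Bmp4 was higher in betaD5 by 2.51 (adjusted p = 0.000466) in non-SP and 2.38 (adjusted p = 0.000726) in SP cells. It was then 1 of 9 members called in non-SP cells, where 11.2% of tested genes were, and Bmp4 and Ccn2 (1.80, adjusted p = 0.0355) were 2 of 9 in SP cells, where 11.5% were. Those 2 pairs were left out for their likeness to the other line over the tested genes, which include Bmp4. Leaving them out removed the lowest betaD5 and the highest cRAF_cMYC values of Bmp4 in both fractions. These p-values and counts are therefore no independent support for a line difference. The TGF-beta target Tgfbi, named after its values were seen, ran against Bmp4 over the same arrays, at 10.98 to 12.51 in betaD5 1 and cRAF_cMYC 1 and 2 and at 4.86 to 5.39 in betaD5 2 and 3 and cRAF_cMYC 3.

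By the main probe sets of the inhibitory Smads, Smad7 was called lower in A2C12 SP cells on both scales. Their other differences were called as deposited only or not at all. Smad7 read 8.79, 9.07 and 8.79 in its non-SP and 8.58, 8.76 and 8.73 in its SP cells, against 8.98 to 10.95 on the other arrays, overlapping only at the cRAF_cMYC 1 non-SP array. In SP cells the difference was called as deposited, -1.50 (SE 0.29, adjusted p = 0.000493), and centred, -0.85 (adjusted p = 0.00168), a 1.81-fold centred difference, and the second Smad7 probe set gave -1.40 centred. In non-SP cells the main probe set gave -0.93 (adjusted p = 0.0134) as deposited and -0.36 (adjusted p = 0.137) centred. As deposited it also missed the threshold without A2C12 non-SP replicate 3 (-0.88, adjusted p = 0.0563). The second Smad7 probe set had a larger non-SP difference, -1.62 as deposited, so a lower Smad7 is not confined to SP cells on it. Smad6 read 8.76, 8.57 and 8.02 in A2C12 non-SP and 8.14, 8.71 and 8.10 in SP cells, against 8.14 to 9.91 in non-SP and 8.73 to 10.79 in SP cells of the other lines. In non-SP cells its difference was -0.55 (adjusted p = 0.307) as deposited and 0.02 (adjusted p = 0.974) centred. It was called only in SP cells and only as deposited (-1.28, SE 0.45, adjusted p = 0.0235), against -0.63 (adjusted p = 0.23) centred. The call was lost without A2C12 SP replicate 1 (-1.19, adjusted p = 0.0774), without A2C12 SP replicate 3 (-1.17, adjusted p = 0.0902) or without cRAF_cMYC SP replicate 2 (-1.01, adjusted p = 0.0527).

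The deposited line differences of the 3 Id genes were small. Id3 lay at 12.88 to 13.16 in A2C12 and at 12.05 to 13.45 elsewhere, Id1 at 11.87 to 12.40 against 11.53 to 12.79, and Id2 at 11.06 to 11.69 against 11.03 to 12.69, so all 3 overlapped and none was called as deposited. Centred, Id3 was higher in A2C12 by 0.75 (adjusted p = 0.00524) in non-SP and 0.82 (adjusted p = 0.00272) in SP cells, 1.68-fold and 1.76-fold. Its 6 centred A2C12 values (4.10 to 4.27) lay above the others (2.67 to 3.82). Id1 was at 0.51 (adjusted p = 0.0707) and 0.54 (adjusted p = 0.0537) centred and missed the threshold. Id2 was at 0.27 and 0.05 centred, with no call, although as deposited its SP difference of -0.60 became -0.82 (adjusted p = 0.0185) without cRAF_cMYC SP replicate 1.

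Counted together, 3 of 9 members (Ccn2, Tgfb2 and Smad7) were called lower and 0 higher in A2C12 non-SP cells as deposited, where 49.2% of tested genes were lower and 2.96% higher. In SP cells 4 of 9 (also Smad6) were lower and 0 higher, against 50.7% and 2.77% of tested genes. Centred, 1 of 9 (Ccn2) was lower and 2 (Id3 and Tgfb1) were higher in non-SP cells, where 16.5% and 14.8% of genes were. In SP cells 2 of 9 (Ccn2 and Smad7) were lower and 2 higher, against 16% and 17.8%. The median member difference was -0.30 as deposited and 0.27 centred in non-SP cells, and -0.60 and 0.05 in SP cells, where the median over all tested genes was -0.58, -0.01, -0.60 and 0.05 in the same order. The counts of members were near the background shares in both directions on the centred scale.

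**Figure D2:**
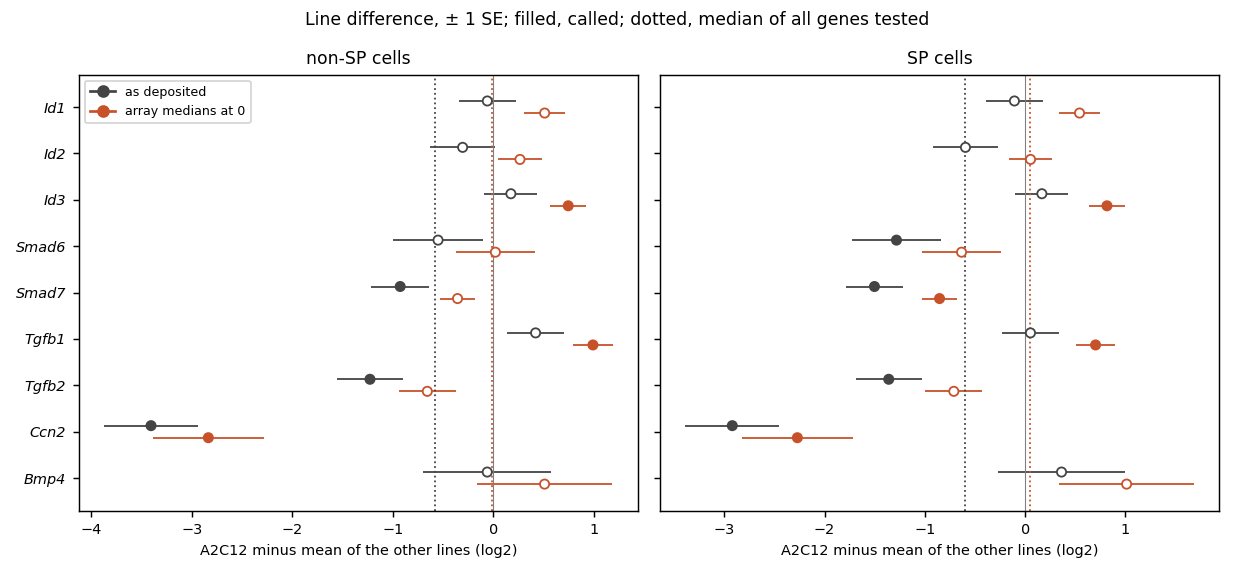
A2C12 minus the mean of betaD5 and cRAF_cMYC (x axis, log2 difference) for the 9 genes in non-SP and SP cells, as deposited and with array medians at 0, with bars of 1 SE. Filled points passed an adjusted p of 0.05 and dotted lines mark the median of all genes tested. Ccn2 is farthest below 0 on both scales (-3.41 and -2.83 in non-SP cells), while Id3 and Tgfb1 pass the threshold only once centred.

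Between SP and non-SP cells no member was called. Over the 3 lines the mean difference ran from -0.14 (Id1, SE 0.19) to 0.36 (Smad6, SE 0.30) in the limma fit without pairs. This fit called 0 of 9 members and 0% of tested genes. No member was under an unadjusted p of 0.05, but only 0.33% of tested genes were, so this says little about the members. The median member difference was 0.06, against 0.01 over all tested genes. The fit with each replicate number as a block, which sets every SP array against its own non-SP array, also called 0 members and 0% of genes. At an unadjusted p under 0.05 it held 2 of 9 members, Smad6 and Smad7, where 13.2% of tested genes were.

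Smad6 was higher in SP cells in 7 of 9 pairs. The share of tested genes with such a count was not taken, so the count is a description only. The Smad6 differences were -0.62, 0.14 and 0.08 in A2C12 pairs 1 to 3, 0.89, -0.25 and 0.56 in betaD5, and 0.89, 1.33 and 0.20 in cRAF_cMYC. The mean was 0.36, with a 95% interval of 0.05 to 0.66 in the paired fit (adjusted p = 0.313). In cRAF_cMYC, where all 3 pairs were higher, it was 0.81 (0.28 to 1.34, adjusted p = 0.462). The values of 0.89 and 1.33 in cRAF_cMYC 1 and 2 were reached by 0.055% and 0.0275% of tested genes in those pairs. Smad7 differed by -0.21, -0.32 and -0.06 in A2C12, 0.50, 0.20 and -0.04 in betaD5, and 0.41, 0.85 and 0.35 in cRAF_cMYC. On this probe set it was lower in all 3 A2C12 pairs and higher in all 3 cRAF_cMYC pairs, a pattern not counted over all tested genes. The second probe set was also higher in all 3 cRAF_cMYC pairs but differed by -0.08, -0.14 and 0.20 in A2C12, and by 0.33, 0.46 and 0.51 in betaD5. The main probe set had a paired mean over lines of 0.19 (0.02 to 0.35, adjusted p = 0.318). In cRAF_cMYC the paired difference was 0.54 (0.26 to 0.82, adjusted p = 0.358). Smad6 and Smad7 were 2 of 9 members at an unadjusted p under 0.05 in that line, where 8.24% of genes were. In betaD5 Id2 was 1 of 9 (0.25, adjusted p = 0.392), where 11.9% were. The test of whether the 3 lines differed in their SP difference put Smad7, 1 of 9, at an unadjusted p of 0.0062 (F = 8.32, adjusted p = 0.996), where 3.49% of genes were under 0.05.

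**Figure D3:**
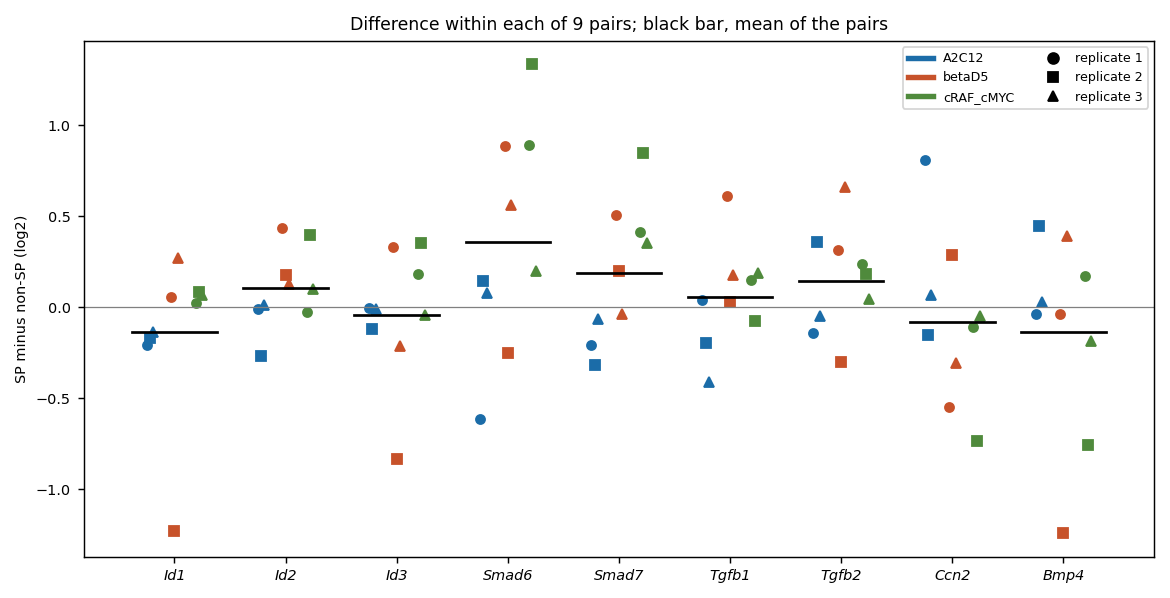
SP minus non-SP (y axis, log2 difference) of each gene (x axis) in the 9 pairs, by line (colour) and replicate number (shape), with a black bar at the mean of the pairs. Smad6 has the highest mean of the 9 genes (0.36), and Id1, Id3 and Bmp4 are lowest in the betaD5 2 pair.

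Taken by number, the most negative SP differences of Id1, Id3 and Bmp4 were all in 1 pair. For betaD5 2 and 3 the numbers pair the arrays least clearly. Their deviations from the group means had r = 0.618 and 0.600 by number, against 0.567 and 0.684 with a different number. Paired otherwise, these arrays would give other differences. In betaD5 2, the SP value was below the non-SP value by a difference of -1.23 in Id1, -0.83 in Id3 and -1.24 in Bmp4, values that 0.412%, 1.33% and 0.376% of tested genes reached in that pair. The SP and non-SP signals there were 11.56 and 12.79 in Id1, 12.29 and 13.13 in Id3, and 10.96 and 12.21 in Bmp4. In the other 8 pairs Id1 differed by -0.21 to 0.27 and Id3 by -0.22 to 0.35, and Bmp4 by -0.76 (in cRAF_cMYC 2) to 0.44. Id2 differed by 0.17 in betaD5 2 on its main probe set, while its 2 other probe sets read -0.99 and -1.54. The 3′/5′ signal ratio of Gapdh and Actb, a sign of RNA and cDNA length, was higher in SP cells by 0.77 (log2) in this pair. It was higher by 0.86 in betaD5 3, where Id1 differed by 0.27, Id3 by -0.22 and Bmp4 by 0.39, and its differences elsewhere were -0.49 to 0.23. Tgfb1, Tgfb2 and Ccn2 had no common direction: they were higher in SP cells in 6, 6 and 3 of 9 pairs, with ranges of -0.41 to 0.61, -0.30 to 0.66 and -0.74 to 0.81.

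The rest of the pathway was read from lists of genes by role, on the centred scale for A2C12 against the other lines, with counts for non-SP and then SP cells. Over all tested genes 14.8% were higher and 16.5% lower in non-SP cells, and 17.8% and 16% in SP cells. The lists are short, so counts that lie 1 or 2 genes from these shares are descriptions and no result about a role. Among ligands, 2 of 9 tested genes were higher and 0 lower in both fractions. Inhbb, an activin subunit, was at 1.57 and 1.62, although its second probe set gave 0.09 and 0.39, and Tgfb1 was the other. Among receptors and co-receptors, 1 of 13 was higher and 2 lower in non-SP cells and 2 and 2 in SP cells. Tgfbr1, the type I TGF-beta receptor, was higher by 1.97 (adjusted p = 3.15e-05) and 1.69. It was called as deposited too (1.40 and 1.05), where 2.96% and 2.77% of tested genes were called higher. Its signal was 11.25 to 11.35 on the 6 A2C12 arrays and 9.47 to 10.96 on the other 12. The activin receptor gene Acvr2a (-0.88 and -0.84) and the BMP co-receptor gene Rgmb (-0.74 and -0.92) were lower, although a dimmer Rgmb probe set gave -0.015 and 0.33. Of 5 signalling Smads, 2 were lower in both fractions, Smad2 (-1.04 and -1.13) and Smad4 (-0.89 and -0.85), and 0 were higher. Each of their other probe sets had a centred difference of -0.87 or lower. The list's median was -0.31 and -0.40, against -0.01 and 0.05 over all tested genes.

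Secreted inhibitors had 3 of 10 tested genes higher and 0 lower in both fractions: Nbl1 (1.39 and 1.39) and Chrd (1.10 and 1.14), which bind BMPs, and Fstl3 (1.12 and 1.05), which binds activin. Of 10 genes of latent TGF-beta storage and release, 2 were lower and 0 higher, the integrin subunit Itgav (-0.83 and -0.83) and decorin, Dcn (-2.96 and -3.33). The intracellular brakes, which hold Smad signals back, had 1 of 13 higher and 5 lower in non-SP and 0 and 4 in SP cells, among them the Smad corepressor Skil (-0.84 and -1.12), the ubiquitin ligase Smurf2 (-0.50 and -0.54) and Pmepa1 (-0.77 and -0.64). A probe set of Smurf2 with lower signal gave 0.38 and 0.42. The list holds Smad7, which was 1 of the 4 in SP cells. TGF-beta target genes had 3 of 21 higher and 5 lower in each fraction, near the shares over all genes. The matrix gene of fibronectin, Fn1, was higher (0.71 and 0.85), although its second probe set gave 0.52 and -0.25, and Ccn2, Skil and Pmepa1 were lower. BMP target genes had 2 of 12 higher in both fractions, Id3 and Msx1 (1.47 and 1.33), and 0 and 1 lower. Msx1's second probe set gave 0.29 and 0.20. Of 10 YAP and TEAD target genes, 3 and 4 were lower and 0 higher, with Ccn1 (-1.33 and -1.28) and F3 (-1.17 and -1.30) beside Ccn2. The median of that list was -0.66 and -0.77. Of 3 E proteins, the partners that Id proteins bind, Tcf4 was lower (-1.47 and -1.48), and Tcf3 was called higher in SP cells (0.42, adjusted p = 0.0301) but not in non-SP cells (0.37, adjusted p = 0.053). As deposited its differences turned to -0.20 in non-SP and -0.23 in SP cells. Immediate early genes, which answer growth signals within minutes, had 7 of 21 higher and 2 lower in non-SP and 6 and 1 in SP cells, with Egr2 at 3.39 and 3.78 and Nr4a1 at 1.67 and 1.47. In the SP comparison over lines, limma called 0 genes of each of these lists in both fits. The medians of the lists there ran from -0.11 (latent TGF-beta storage and release) to 0.12 (signalling Smads), against 0.01 over all tested genes.

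**Figure D4:**
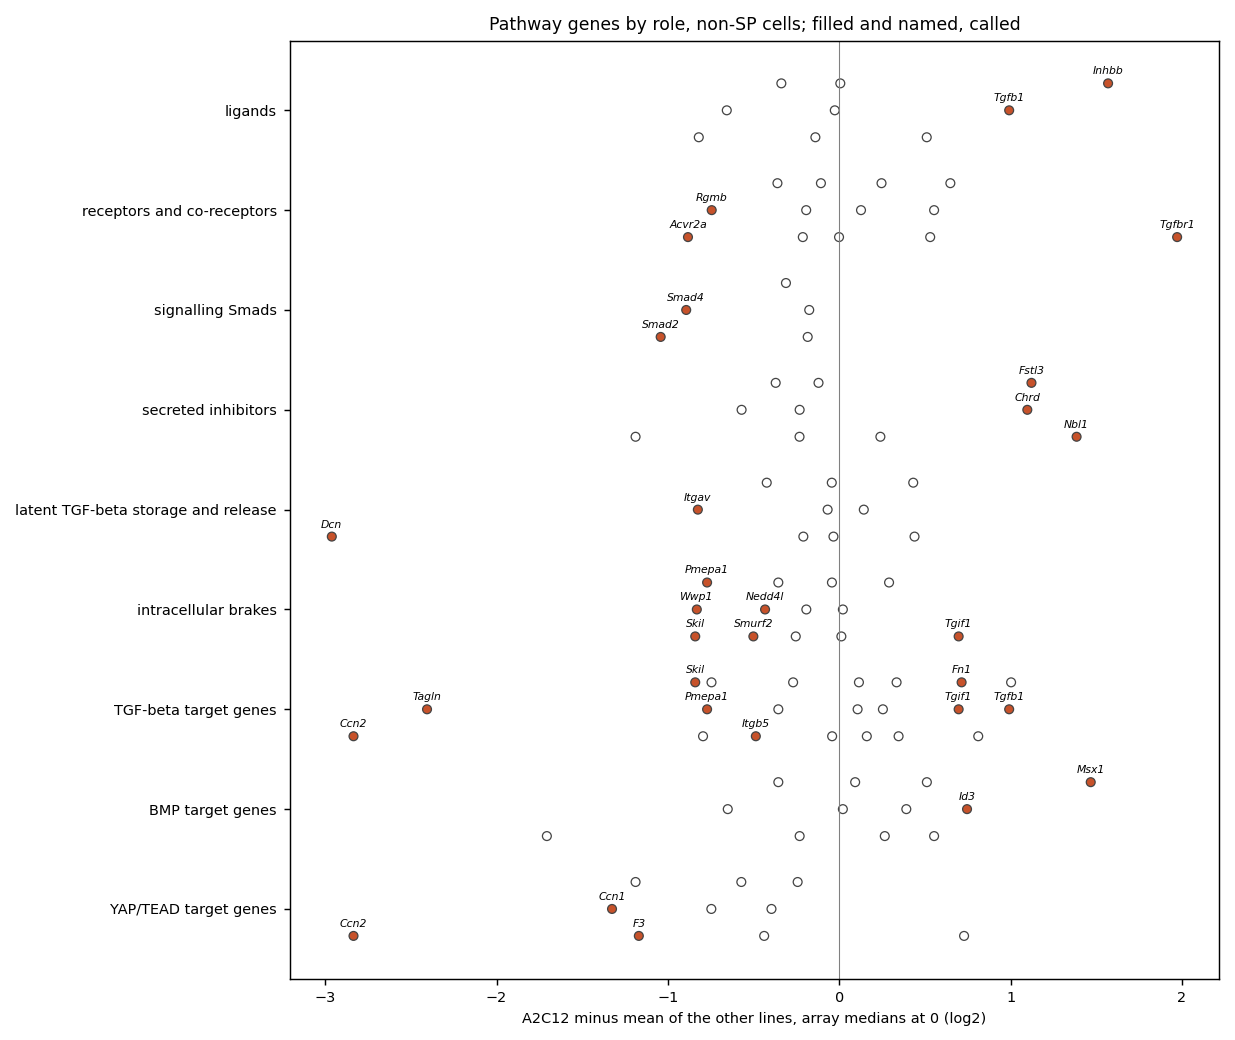
A2C12 minus the mean of the other lines in non-SP cells (x axis, log2 difference with array medians at 0) for pathway genes by role (y axis). Each point is 1 gene, shifted vertically for legibility, and filled, named points passed an adjusted p of 0.05. Immediate early genes and E proteins are not plotted. Among the genes drawn, Tgfbr1 (1.97) is farthest to the right, and Dcn (-2.96) and Ccn2 (-2.83) are farthest to the left.

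Over the 18 arrays the members fell into a few patterns, described by Pearson's r of deposited signals, which share the array scale and line differences. Id1 and Id3 had r = 0.87, Smad6 and Smad7 0.84, and Tgfb2 and Ccn2 0.84, while Bmp4 reached at most 0.38 with any other member. The tested genes most like Ccn2 were Epb41l4a (0.985), Pard6b (0.981) and Pag1 (0.981). Those most like Smad7 and Tgfb2 were Rnf24 and Rcan1, each at 0.972. Smad6 was most like Atp10d (0.930), Id3 like Sugt1 (0.951), Id2 like Fbxo11 (0.943), Bmp4 like Carns1 (0.942), Tgfb1 like Vwa8 (0.920) and Id1 like BC052688 (0.911).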

How the data were processed

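Gene expression was measured on 18 Affymetrix 3′ expression arrays. Per the labels' protocols, 200 ng of total RNA gave 10 µg of biotin-labelled cRNA, and the submitters' processing notes name Affymetrix Expression Console with no version; the summary algorithm and normalization are not given in the sources used here. What was deposited is a table of log2 signals for 45101 probe sets, whose medians differed between arrays. Precision is limited by the number of arrays.

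The members and the gene lists were chosen with earlier results of these data known. The 64 control probe sets and 932 probe sets with several symbols were left out. Probe sets with 1 symbol numbered 34945, of which 34741 were matched to current names through RefSeq's gene table. Of the probe sets of a gene the brightest by mean signal stood for it (18193 genes), and the 40% with the lowest mean (under a log2 signal of 6.53) were left out. In R 4.3.3, limma 3.58.1, with eBayes and an intensity trend, fitted 6 group means to all arrays with 12 residual degrees of freedom. All p-values are two-sided, and called means an adjusted p (Benjamini-Hochberg, 10916 genes) under 0.05. The fit was tested on simulated data. Same-numbered SP and non-SP arrays of a line deviated together (r of 0.426 to 0.952 over genes in 9 of 9 pairs), so the numbers were taken to pair them and a replicate block (6 residual degrees of freedom) was fitted as an alternative. For betaD5 3 this was 0.600, below the 0.684 it had with a different number. Median centring, quantile normalization, other filters and probe sets, no trend, the 3′/5′ ratio as a covariate and leaving out arrays or pairs were further alternatives. Named were all 9 members, up to 4 genes past the threshold per list and comparison by smallest p, or the 2 with the smallest p, and the 3 genes most like each member, except where said.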

Additional observations from a re-analysis of the deposited data

Results flagged for a closer look

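In the betaD5 2 pair, the SP minus non-SP difference stood apart from the other 8 pairs for 2 of the 9 genes by Dixon's criterion, which chance meets in about 1 of 20 groups. Id1 differed there by -1.23 against -0.21 in the nearest pair, a gap of 0.683 of the whole range. Id3 differed by -0.83 against -0.22 in the nearest pair, a gap of 0.522. Both gaps depend on pairing the betaD5 2 and 3 arrays by number. Their deviations had r = 0.618 and 0.600 by number, against 0.567 and 0.684 with a different number.

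For Id1 and Smad7 the SP difference on the main probe set had opposite signs in every pair of 2 lines. The share of tested genes with such a pattern was not counted, so it is a description only. Id1 was lower in SP cells in 3 of 3 A2C12 pairs and higher in 3 of 3 cRAF_cMYC pairs, the mean of cRAF_cMYC exceeding that of A2C12 by 0.23 (log2). Its cRAF_cMYC differences were small, at 0.02, 0.08 and 0.06 in pairs 1 to 3. Smad7 had the same pattern with a difference of 0.74, but its second probe set was at 0.20 in A2C12 3, so the pattern did not hold on it. The difference between these 2 lines was not tested by itself. The limma test over the 3 lines gave Smad7 an adjusted p of 1 without pairs and 0.996 with them. With pairs it gave Id1 an adjusted p of 0.996 too.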

How the results depend on the processing

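Results that changed are grouped here by setting, in log2 differences, and the cause was not tested except where the setting's construction shows it. Centring sets the array medians to 0, which by construction removes the shift of A2C12, and turned the A2C12 differences of Id1 (0.51 in non-SP, 0.54 in SP), Id2 (0.27 and 0.054), Smad6 (0.021 in non-SP) and Bmp4 (0.51 in non-SP). Quantile normalization did the same for Id1 (0.57 and 0.51), Id2 (0.34 and 0.053) and Bmp4 (0.60 in non-SP). Over all genes A2C12 minus the other lines had 323 genes higher and 5374 lower as deposited and 1620 and 1806 centred in non-SP cells, and 302 and 5537 against 1939 and 1748 in SP cells. The number of members called stayed at 3 and 4 on both scales, with Id3 and Tgfb1 in place of Smad7 and Tgfb2 in non-SP and of Smad6 and Tgfb2 in SP cells.

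Taking the mean of all probe sets turned Id2 in SP against non-SP cells (-0.23 in betaD5, -0.11 over lines) and Tgfb1 in A2C12 (-0.21 and -0.38). The second probe set turned Id2 likewise (-0.22 and -0.046), and with it 1 member was called in A2C12 non-SP cells, of fewer genes that have a second probe set. The pairs betaD5 1 and cRAF_cMYC 3 were left out for their likeness to the other line. Without them, 1 member was called between betaD5 and cRAF_cMYC in non-SP and 2 in SP cells. Tgfb1 over lines then turned to -0.017, with and without the replicate block, Bmp4 in A2C12 non-SP to 0.13 and Id1 in A2C12 SP cells to 0.014. With the 3′/5′ ratio as a covariate Tgfb1 in A2C12 SP cells was at -0.00091, and with the replicate block too, Id3 over lines was at 0.067. The replicate block by itself left every member uncalled, with an adjusted p of 0.313 at the lowest for the mean over lines.

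Leaving out 1 array or 1 pair at a time turned some small differences. Over lines, SP minus non-SP then ran from -0.44 to 0.15 in Bmp4, -0.26 to 0.16 in Ccn2, -0.23 to 0.015 in Id1, -0.020 to 0.26 in Id2, -0.15 to 0.058 in Id3 and -0.061 to 0.17 in Tgfb1. A2C12 minus the other lines ran from -0.30 to 0.38 in Bmp4 and from -0.19 to 0.074 in Id1 in non-SP cells, and from -0.28 to 0.033 in Id1 and -0.11 to 0.18 in Tgfb1 in SP cells. The Ccn2 calls in A2C12 held under every alternative that tested them. Ccn2 has 1 probe set, so the runs with other probe sets gave no other measure of it. The replicate block was not used for line differences.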
